A study of Mus musculus with 7 samples.

Results

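The genes described here are 10 that carry the calcium cycle of the muscle fibre: *Cacna1s*, *Cacng1*, *Ryr1*, *Trdn*, *Jph1*, *Casq1*, *Casq2*, *Srl*, *Atp2a1* and *Pvalb*. They were chosen by function, as genes of excitation-contraction coupling, calcium pumping and calcium buffering, with their response to treatment already known, so their values are given as a description and without a test. They are 10 of the 55450 genes listed in the count table and 10 of the 17959 that passed the expression filter, and none of the 10 was lost to the filter. They were measured by bulk RNA sequencing in the dorsal skin of male C57BL/6 mice aged 24 months, which for 5 days had received either topical ABT-263 at 5 µM in DMSO (3 mice, 476, 477 and 478) or only the DMSO vehicle (4 mice, 480, 481, 482 and 483). Hair was removed from the treated area in both groups, polyadenylated RNA was sequenced, and each mouse gave 1 library. ABT-263 (navitoclax) inhibits anti-apoptotic proteins of the Bcl-2 family and is used to kill senescent cells. The skin was taken whole and no cell type was isolated, and the share of muscle fibres in it was not measured.

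In skeletal muscle, depolarization of the transverse tubule is sensed by the dihydropyridine receptor, which opens the ryanodine receptor in the membrane of the sarcoplasmic reticulum so that stored calcium floods the cytosol. Calsequestrin holds calcium inside the store, junctional proteins keep the tubule and the store in contact, the SERCA pump returns calcium to the store, and parvalbumin binds calcium in the cytosol and speeds relaxation of fast fibres. In mouse skin the main source of such fibres is the panniculus carnosus, the thin sheet of striated muscle under the dermis.

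The library totals lay between 20344364 and 26824123 counts after DMSO and between 27325963 and 43562330 after ABT-263, so every ABT-263 library was the larger. Levels are given as CPM, counts scaled to a common library size, after TMM normalization. The skeletal muscle origin of the signal was checked on marker lists. The 14 fast muscle genes summed to between 35525 and 74163 CPM after DMSO and between 29479 and 41674 CPM after ABT-263, and the 8 slow muscle genes to between 2437 and 5456 CPM and between 1179 and 1719 CPM. *Myh6* and *Nppa*, which mark heart muscle, reached at most 8 and 5 counts in any library, and 4 of 7 neuronal genes (*Snap25*, *Nefl*, *Nefm* and *Nefh*) at most 5, 8, 10 and 11. The other 3 neuronal genes passed the expression filter and summed to 10.01 to 42.4 CPM after DMSO against 12.2 to 31.7 CPM in treated mice, most of it *Tubb3*. *Pvalb* also marks a class of neurons, and their part in its level was not tested. The 3 of 7 heart genes that passed the filter summed to between 21.4 and 169.8 CPM after DMSO against 14.9 to 51.9 CPM in treated mice, 5 smooth muscle genes to 331 to 436 CPM against 347 to 475 CPM, and 4 keratinocyte genes to 20468 to 50244 CPM against 17722 to 50212 CPM. Of the fast muscle genes 3 passed the test used below, all lower, with a median log2 fold change of −0.61 over the list, and of 6 immune genes 4 passed, all higher, with a median of 2.31. The part of these shifts in the differences described below was not tested. In bulk RNA, fewer muscle fibres and less of a transcript per fibre cannot be told apart.

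Promoter windows, from 250 bases before to 50 bases after an annotated start, were held for 6 of the 10 genes in RefSeq on GRCm38.p6, and *Pvalb* had a pair of them. They were searched on both strands for the E-box CANNTG, the letters bound by MyoD-family factors, and for the MEF2 and CArG consensus sequences, bound by MEF2 and by serum response factor. Of 32851 such windows in the genome, 72.31% held an E-box, 3.187% a MEF2 match and 1.629% a CArG match, and the E-box, MEF2 and CArG matches were counted separately also where they overlapped. The windows shown are those of *Pvalb* and *Casq1*, which were lower in every ABT-263-treated mouse than in any control, and of *Atp2a1* and *Ryr1*, whose groups overlapped. Each is read 5′ to 3′ on the minus strand, in the direction of transcription, with MEF2 matches and E-boxes in capitals.
Pvalb, chr15:78206351-78206650: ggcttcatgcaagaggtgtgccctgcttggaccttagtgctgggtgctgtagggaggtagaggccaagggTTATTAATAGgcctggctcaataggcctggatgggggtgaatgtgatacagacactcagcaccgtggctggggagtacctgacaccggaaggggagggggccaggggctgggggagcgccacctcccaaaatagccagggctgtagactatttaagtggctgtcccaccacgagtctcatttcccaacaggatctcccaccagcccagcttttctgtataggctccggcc
Casq1, chr1:172219846-172220145: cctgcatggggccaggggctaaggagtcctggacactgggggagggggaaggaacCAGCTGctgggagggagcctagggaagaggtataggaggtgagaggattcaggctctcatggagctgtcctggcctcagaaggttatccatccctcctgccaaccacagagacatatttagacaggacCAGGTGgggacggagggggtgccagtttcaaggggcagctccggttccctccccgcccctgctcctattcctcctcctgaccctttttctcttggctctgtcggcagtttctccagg
Atp2a1, chr7:126463024-126463323: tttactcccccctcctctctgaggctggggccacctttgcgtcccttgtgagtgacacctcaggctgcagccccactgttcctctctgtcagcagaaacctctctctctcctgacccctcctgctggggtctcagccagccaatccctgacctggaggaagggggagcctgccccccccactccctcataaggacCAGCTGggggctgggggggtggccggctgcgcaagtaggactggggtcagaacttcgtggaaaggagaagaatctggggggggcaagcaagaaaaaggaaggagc
Ryr1, chr7:29125102-29125401: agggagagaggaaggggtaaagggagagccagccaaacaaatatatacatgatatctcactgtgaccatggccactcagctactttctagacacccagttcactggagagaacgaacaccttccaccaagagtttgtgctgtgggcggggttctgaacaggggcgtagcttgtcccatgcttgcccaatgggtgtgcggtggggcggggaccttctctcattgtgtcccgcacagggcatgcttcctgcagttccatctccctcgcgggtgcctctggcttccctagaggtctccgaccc

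The *Pvalb* window held 1 MEF2 match, which began 180 bases before the start, and 0 E-boxes. The *Casq1* window held 2 E-boxes, 195 and 67 bases before the start, and that of *Atp2a1* held 1, 55 bases before it. None of the 3 motifs was found in the *Ryr1* window. Among the windows not shown, that of *Casq2* held 1 MEF2 match and 2 E-boxes, that of *Cacna1s* held 2 E-boxes, and the second *Pvalb* window, about an alternative start, held 2 E-boxes. No CArG match was found in any of the 7 windows. These are matches of letters and do not show that a factor binds there.

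The 10 genes differed widely in how far apart the treatments lay. *Pvalb* was 10.1-fold lower after ABT-263, *Trdn* 3.94-fold lower and *Casq1* 2.71-fold lower, while *Ryr1*, *Srl* and *Atp2a1* overlapped broadly between treatments. These 3 lower genes were also the ones with an adjusted p under 0.05 in the edgeR quasi-likelihood fit to all genes, and 0 were higher. Of all genes tested, 24.2% passed that threshold and 11.7% passed it as lower, and nothing is read from the 3 of 10, since the genes were chosen on this contrast. The same 3 genes had no overlap between the groups, which 37.1% of all genes tested shared in either direction and 18.4% as lower. The fitted log2 fold change was negative for 9 of the 10 genes, with a median of −0.75, against 0.00 over all genes tested. Without DMSO-treated mouse 480, 7 of the 10 passed the threshold as lower, and of all genes 4169 of 17738 passed in either direction. Mouse 480 was the lowest control for 9 of the 10 genes, and nothing is read from this count either.

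**Figure D1:**
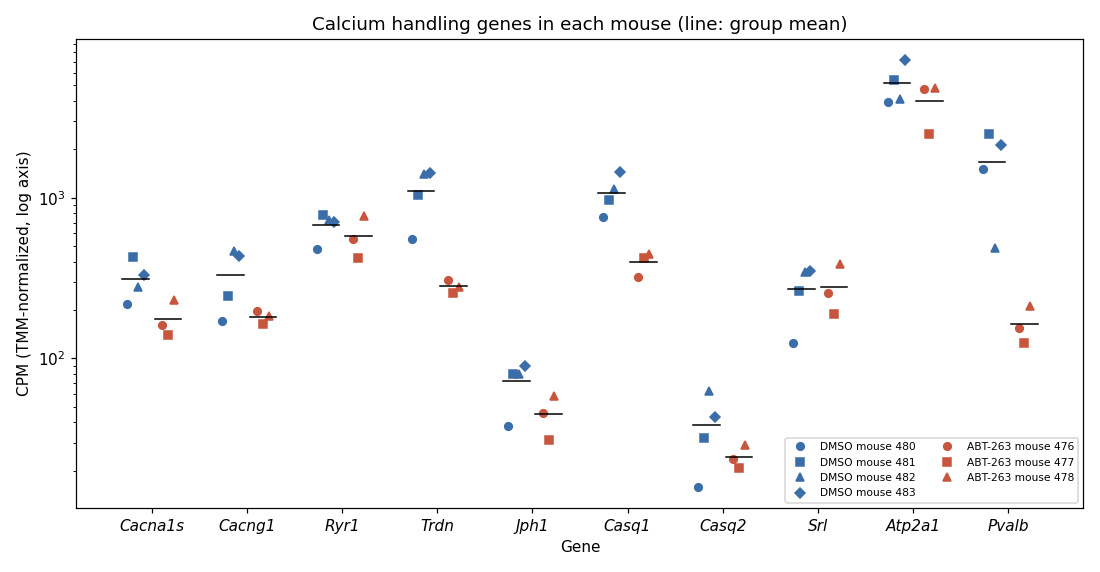
Level of each of the 10 calcium handling genes in each mouse, in CPM on a log axis, with a line at each group mean. *Pvalb*, *Trdn* and *Casq1* are the genes whose 3 ABT-263-treated mice all lie below the 4 DMSO-treated mice.

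The voltage sensor of the transverse tubule is built around *Cacna1s* (ENSMUSG00000026407, chromosome 1, 136052750 to 136119822), the pore subunit of the dihydropyridine receptor. Its level was 218, 425, 280.1 and 329.7 CPM in DMSO-treated mice 480, 481, 482 and 483, and 161, 139 and 230.1 CPM in ABT-263-treated mice 476, 477 and 478. ABT-263-treated mouse 478 lay above control 480, so the groups overlapped by 1 mouse on each side. Mean *Cacna1s* was 313 ± 87.5 CPM (SD, n = 4) against 177 ± 47.5 CPM (SD, n = 3), and the fitted log2 difference was −0.82 with a standard error (SE) of 0.27. *Cacng1* (ENSMUSG00000020722, chromosome 11, 107703218 to 107716522) encodes the gamma subunit of the same channel. It stood at 171, 244, 467 and 434 CPM after DMSO and at 199, 164 and 184 CPM after ABT-263. Control mouse 480 fell within the ABT-263 range and the other 3 controls lay above it, and the controls spread far more (329 ± 144 CPM, SD, n = 4) than the treated mice (182 ± 17.4 CPM, SD, n = 3). The log2 fold change of *Cacng1* was −0.85 (SE 0.34).

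*Ryr1* (ENSMUSG00000030592, chromosome 7, 29003344 to 29125179) encodes the calcium release channel of the sarcoplasmic reticulum. It was found at 482, 784, 729 and 702 CPM after DMSO and at 550.4, 424 and 765 CPM after ABT-263. The 2 ranges nearly coincided, with means of 674 ± 133 CPM (SD, n = 4) and 579.6 ± 172 CPM (SD, n = 3). The log2 fold change was −0.22 (SE 0.25), and its sign was not stable to a correction for transcript length and GC content, which gave 0.16. At 15358 bases the *Ryr1* transcript was the longest of the 10.

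The junction between tubule and store is held by triadin and junctophilin. Triadin (*Trdn*, ENSMUSG00000019787, chromosome 10, 33080554 to 33476709) anchors calsequestrin to the release channel. *Trdn* was at 553, 1039, 1399 and 1421 CPM after DMSO and at 308, 256 and 276 CPM after ABT-263. The lowest control, mouse 480, was above the highest treated mouse, 476, and the treated mice were close together. Means of 1103 ± 406 CPM (SD, n = 4) and 280.2 ± 26.0 CPM (SD, n = 3) gave a log2 fold change of −1.98 (SE 0.34). *Jph1* (ENSMUSG00000042686, chromosome 1, 16964560 to 17097889) encodes junctophilin 1, which tethers the membranes to each other. Its level was 38.1, 80.4, 79.7 and 90.4 CPM after DMSO and 45.6, 31.1 and 58.1 CPM after ABT-263. Only control 480 lay within the treated range, and the log2 fold change was −0.68 (SE 0.32).

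*Trdn* and *Ryr1* did not keep the same proportion, and no such ratio was taken for *Jph1*. The ratio of *Trdn* to *Ryr1* was 1.15, 1.33, 1.92 and 2.02 in the 4 controls and 0.560, 0.605 and 0.361 in the 3 treated mice. No treated mouse reached the lowest control, and the mean ratio was 1.604 ± 0.433 (SD, n = 4) against 0.509 ± 0.130 (SD, n = 3). The ratio compares reads of transcripts of different length, so its absolute value is not one of molecules.

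The store itself holds 3 of the genes. *Casq1* (ENSMUSG00000007122, chromosome 1, 172209894 to 172219868) encodes the calsequestrin of fast fibres, the main calcium-binding protein of the store. It was at 761, 969, 1135 and 1437 CPM after DMSO and at 322, 421 and 448 CPM after ABT-263. Every treated mouse lay well under the lowest control, and the log2 fold change was −1.44 (SE 0.26) between means of 1076 ± 285 CPM (SD, n = 4) and 397 ± 66.4 CPM (SD, n = 3). *Casq2* (ENSMUSG00000027861, chromosome 3, 102086415 to 102146514), the calsequestrin of heart and slow fibres, was at 16.0, 31.9, 62.5 and 43.2 CPM after DMSO and at 23.5, 20.9 and 29.1 CPM after ABT-263. Control 480 had the lowest *Casq2* of all 7 mice, and the log2 fold change was −0.65 (SE 0.41). *Casq2* amounted to 2.10%, 3.30%, 5.51% and 3.01% of *Casq1* in the controls and to 7.31%, 4.97% and 6.50% in the treated mice, with treated mouse 477 under control 482.

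*Srl* (ENSMUSG00000022519, chromosome 16, 4480216 to 4541816) encodes sarcalumenin, a calcium-binding protein of the store that associates with the pump. *Srl* levels were 124, 264, 345 and 351 CPM after DMSO and 255, 189 and 389 CPM after ABT-263. The highest mouse of all was a treated one, 478, and the lowest was control 480. The means were 271 ± 106 CPM (SD, n = 4) and 278 ± 102 CPM (SD, n = 3), and the log2 fold change of 0.03 (SE 0.38) took either sign as single mice were left out, from −0.28 without mouse 478 to 0.27 without mouse 477.

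The pump that refills the store is SERCA1, encoded by *Atp2a1* (ENSMUSG00000030730, chromosome 7, 126445858 to 126463108), and it was the most abundant of the 10 transcripts by counts in every mouse. *Atp2a1* was at 3948, 5373, 4124 and 7163 CPM after DMSO and at 4764, 2488 and 4780.0 CPM after ABT-263. Treated mice 476 and 478 lay between the controls, and only treated mouse 477 lay below all of them. The means were 5152 ± 1484 CPM (SD, n = 4) and 4011 ± 1318 CPM (SD, n = 3), with a log2 fold change of −0.36 (SE 0.34).

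Parvalbumin, the cytosolic buffer (*Pvalb*, ENSMUSG00000005716, chromosome 15, 78191114 to 78206400), stood furthest apart. *Pvalb* was at 1514, 2506, 483 and 2122 CPM after DMSO and at 154, 126 and 213 CPM after ABT-263. The controls themselves spread 5.18-fold, with mouse 482 low, yet the lowest of them was above the highest treated mouse. The means were 1656 ± 882 CPM (SD, n = 4) and 164 ± 44.8 CPM (SD, n = 3), and the log2 fold change was −3.33 (SE 0.56). The values rest on 4298 counts or more in every library.

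**Figure D2:**
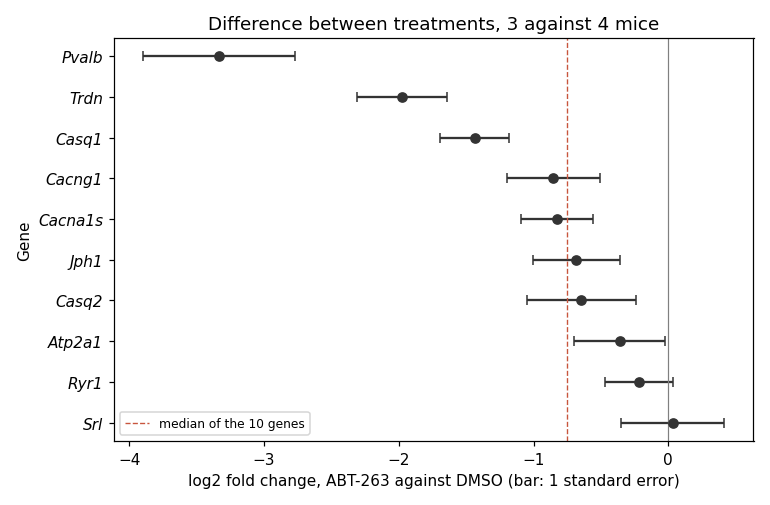
Fitted log2 fold change of each gene, ABT-263 against DMSO, with 1 SE to each side and a dashed line at the median of the 10 genes. The values run from −3.33 for *Pvalb* to 0.03 for *Srl*, with *Trdn* at −1.98 and *Casq1* at −1.44 next to *Pvalb*.

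*Pvalb* was then set against the other 9 genes within each mouse. Its log2 fold change minus the median of the other 9 was −2.65. Per mouse, log2 CPM of *Pvalb* minus the mean of the other 9 was 2.68, 2.63, 0.05 and 2.08 in the controls and −0.62, −0.60 and −0.42 in the treated mice. *Pvalb* was thus above the mean of the others in all 4 controls, barely so in mouse 482, and below it in all 3 treated mice. Relative to the pump, *Pvalb* amounted to 38.3%, 46.6%, 11.7% and 29.6% of *Atp2a1* in the controls and to 3.23%, 5.05% and 4.46% in the treated mice. These shares averaged 31.6% ± 14.95 (SD, n = 4) and 4.25% ± 0.930 (SD, n = 3) and did not overlap. Likewise *Pvalb* made up between 5.31% and 21.4% of the summed CPM of the 10 genes after DMSO and between 2.27% and 2.95% after ABT-263. *Casq1* ran from 18.04% to 27.5% of *Atp2a1* in the controls and from 6.76% to 16.9% in the treated mice, also without overlap.

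**Figure D3:**
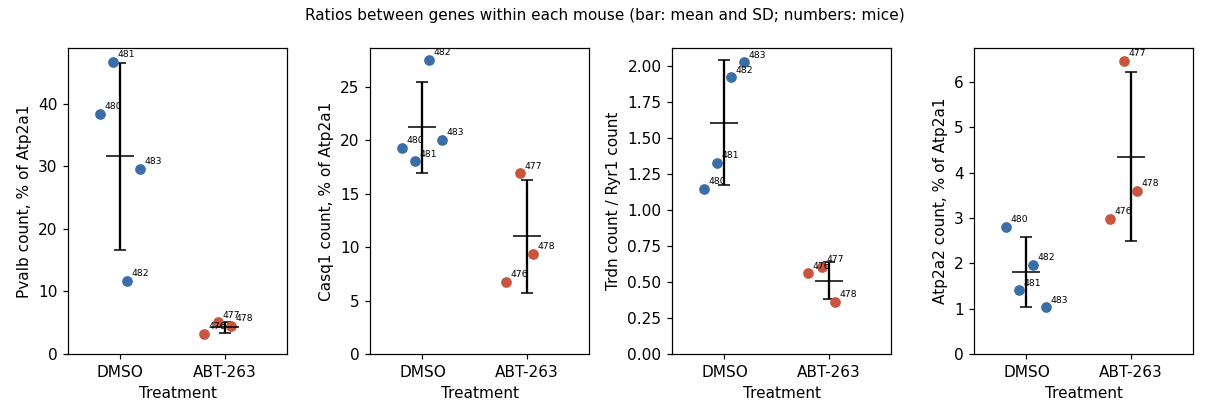
*Pvalb*, *Casq1* and *Atp2a2* as a percentage of *Atp2a1*, and *Trdn* over *Ryr1*, in each numbered mouse by treatment, with a line at each mean and a bar of 1 SD to each side. *Pvalb* as a percentage of *Atp2a1* lies between 11.7% and 46.6% after DMSO and between 3.23% and 5.05% after ABT-263.

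The lowest mouse of each group was much the same from gene to gene. Among the controls, mouse 480 was lowest for 9 of the 10 genes, and *Pvalb* was the exception with its lowest value in mouse 482. The highest control varied, being mouse 483 for 5 genes, 481 for 3 and 482 for 2. Among the treated mice, 477 was lowest for 9 genes, with *Casq1* the exception, and 478 was highest for 8. Summed over the 10 genes, the controls lay between 7825 and 14094 CPM and the treated mice between 4259 and 7373 CPM. The profiles of the other 9 genes over the 7 mice differed from their common mean by between 0.12 (*Jph1*) and 0.60 (*Trdn*), as the root mean square difference of centred log2 CPM, and *Pvalb* by 1.44.

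The level of fast muscle RNA also differed among mice, with a mean log2 CPM over the 14 fast muscle genes of 10.86 after DMSO and 10.35 after ABT-263. Relative to that mean in each mouse, *Pvalb* differed by −2.63 on the log2 scale, *Trdn* differed by −1.38 and *Casq1* by −0.91, each without overlap between groups. These are the genes that already had no overlap in CPM. For the other 7 genes the groups overlapped. The share of all genes without overlap on this relative measure was not computed, so nothing is read from which genes overlapped. *Cacna1s* differed by −0.31, *Cacng1* by −0.24 and *Jph1* by −0.15. *Casq2* at 0.01, *Atp2a1* at 0.12, *Ryr1* at 0.27 and *Srl* at 0.58 had differences above 0. The 14 fast muscle genes themselves differed widely. Their fitted log2 fold changes reached −1.32 (*Pgam2*) and −1.28 (*Tnni2*), near the −1.44 of *Casq1*, but were 0.29 for *Myl1* and 0.91 for *Mybpc2*. A fall beyond their mean is therefore not particular to the calcium handling genes.

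**Figure D4:**
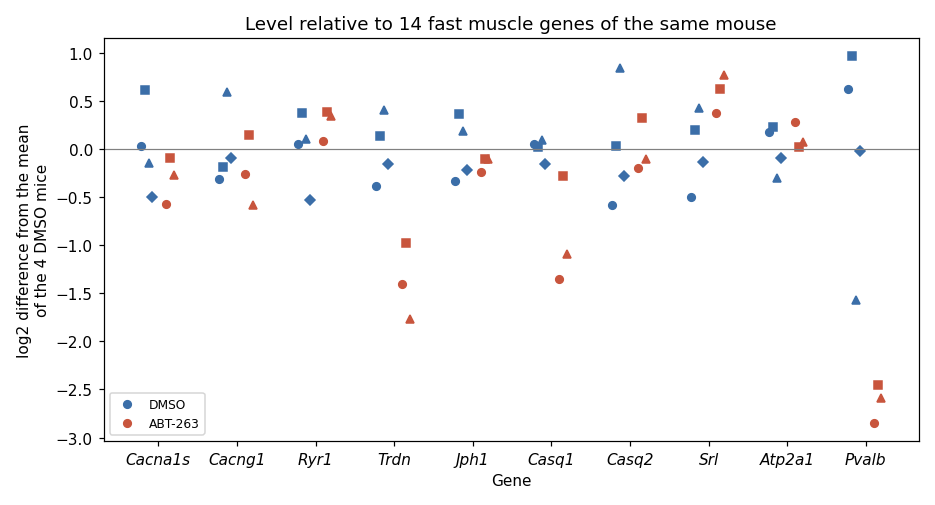
Level of each gene in each mouse relative to the mean of 14 fast muscle genes of that mouse, as a log2 difference from the mean of the 4 DMSO-treated mice. *Pvalb*, *Trdn* and *Casq1* keep the 3 ABT-263-treated mice below every control, and the other 7 genes overlap. The share of all genes without overlap on this measure was not computed.

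Levels of different genes were compared per kilobase of merged exons. After DMSO, *Pvalb* (1591 ± 848 CPM per kilobase, SD, n = 4) and *Atp2a1* (1482 ± 427) led and overlapped each other, with *Pvalb* above *Atp2a1* on average. *Casq1* followed at 551 ± 146 CPM per kilobase and *Cacng1* at 264 ± 115. The steps from *Atp2a1* to *Casq1* and from *Casq1* to *Cacng1* were without overlap between mice. *Pvalb*, with its lowest control at 464 CPM per kilobase, overlapped *Casq1*, with its highest at 736. *Trdn*, *Srl*, *Cacna1s* and *Ryr1* came next, at 118, 50.9, 47.8 and 30.9 CPM per kilobase, each overlapping its neighbour, and *Jph1* and *Casq2* were lowest at 14.4 and 14.04. After ABT-263 the order of the leading genes was different. *Atp2a1* led alone at 1154 ± 379 CPM per kilobase (SD, n = 3), and *Casq1* (204 ± 34.0), *Pvalb* (158 ± 43.1) and *Cacng1* (146 ± 13.9) formed a group with overlapping neighbours. *Srl* at 52.1 CPM per kilobase stood above *Trdn* at 30.0. The place of *Trdn* depends on the length used, since over its longest coding transcript it was at 62.1 CPM per kilobase after ABT-263, above *Srl*.

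Of the wider calcium and excitation machinery, 74 genes outside the 10 were listed by function and 71 could be tested. By the same edgeR test and threshold, 17 of the 71 were lower in treated skin and 6 were higher, against 11.7% lower and 12.4% higher among all genes tested. The lists were chosen with earlier results of these data known, so nothing is read from these shares. The part of the lower fast muscle genes (median −0.61) in them was not tested. The median log2 fold change of the 71 genes was −0.42, with 56 values below 0. Of the 23 genes that passed, 6 also passed with each of the 7 mice left out in turn (*Jsrp1*, *Mrln*, *Atp2a2*, *Tnnc2*, *Ppp3ca* and *Rapsn*), and the other 17 lost the call in at least 1 such fit.

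Among other proteins of the triad, 3 of 16 tested were lower and 0 higher, and all 16 fold changes were below 0 with a median of −0.61. *Jsrp1* encodes JP-45, which links the voltage sensor to calsequestrin. It was at 344, 572, 744 and 689 CPM after DMSO and at 247, 212 and 239.9 CPM after ABT-263, with no overlap, and fell by 1.33 on the log2 scale (log2 fold change −1.33, edgeR adjusted p = 0.0139). *Hrc*, a histidine-rich calcium-binding protein of the store, had a log2 fold change of −1.16 (edgeR adjusted p = 0.0233), and *Cacng6*, a relative of *Cacng1*, of −1.18 (edgeR adjusted p = 0.0294). *Hrc* lost its call without mouse 482, 483, 476 or 477 (edgeR adjusted p 0.0555 to 0.0704), and *Cacng6* without any mouse but 480 (edgeR adjusted p 0.0526 to 0.0799). The near relatives *Cacnb1*, the beta subunit of the voltage sensor, and *Jph2*, junctophilin 2, did not pass, at −0.73 (edgeR adjusted p = 0.0514) and −0.76 (edgeR adjusted p = 0.0924). *Cacna1c*, the pore subunit of the cardiac and smooth muscle channel, did not pass either, at 0.78 (edgeR adjusted p = 0.0748), and the other ryanodine receptors *Ryr2* and *Ryr3*, with 2 to 14 and 1 to 10 counts per library, were too low to be tested.

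Pumps, exchangers and their regulators moved both ways, with 3 of 10 tested lower, 2 higher and a median of −0.20. *Mrln* encodes myoregulin, a small membrane protein that inhibits SERCA. Its levels were 14.7, 33.3, 12.1 and 22.1 CPM after DMSO and 4.04, 4.06 and 6.19 CPM after ABT-263, and it fell by 2.11 on the log2 scale (−2.11, edgeR adjusted p = 0.0111). *Atp2a2*, which encodes SERCA2 of slow muscle, heart and many non-muscle cells, went the other way from *Mrln*. *Atp2a2* was at 110.6, 75.6, 81.3 and 73.5 CPM after DMSO and at 142, 161 and 172 CPM after ABT-263, and rose by 0.89 (edgeR adjusted p = 0.0125). It amounted to between 1.03% and 2.80% of *Atp2a1* in the controls and to between 2.97% and 6.46% in the treated mice, so the pump genes *Atp2a1* and *Atp2a2* were nearer in level after ABT-263, although *Atp2a1* stayed far the more abundant. The immune markers given above were also higher in every treated mouse. Their part in the value of *Atp2a2*, and of *Slc8a1*, *Orai2*, *Mcub*, *Calm3* and *Kcna7* below, was not tested. Among the treated mice, mouse 476 had the most of the immune marker *Ptprc* (113.7 CPM, against 16.2 and 22.2 CPM in mice 477 and 478). Mouse 476 had the least *Atp2a2* of the treated mice and the most *Slc8a1*, *Orai2*, *Mcub* and *Calm3*, while *Kcna7* was highest in mouse 478. *Slc8a1*, a sodium-calcium exchanger, rose by 1.36 (edgeR adjusted p = 0.0235), and the plasma membrane pumps *Atp2b1* and *Atp2b4* fell by 0.76 (edgeR adjusted p = 0.0220) and 0.80 (edgeR adjusted p = 0.0292). Each of these 3 lost its call in 4 of the 7 fits with a mouse left out (*Atp2b1* without 482, 483, 477 or 478, *Slc8a1* without 481, 483, 476 or 478, *Atp2b4* without 481, 482, 483 or 476), at edgeR adjusted p of up to 0.0685, 0.0712 and 0.0712. *Atp2a3* (0.21, edgeR adjusted p = 0.350) did not pass.

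Store-operated entry and mitochondrial uptake had 3 of 12 genes lower, 2 higher and a median of −0.22. *Smdt1*, a subunit of the mitochondrial calcium uniporter, fell by 0.71 (edgeR adjusted p = 0.0142), *Micu3*, a regulator of the uniporter, by 0.94 (edgeR adjusted p = 0.0254) and *Orai1*, the channel of store-operated entry, by 0.69 (edgeR adjusted p = 0.0189). *Orai2* and the uniporter inhibitor *Mcub* rose by 0.89 (edgeR adjusted p = 0.0238) and 0.98 (edgeR adjusted p = 0.0312). *Smdt1* lost its call only without mouse 478 (edgeR adjusted p = 0.0538). *Orai1* lost it without 482, 477 or 478, *Orai2* without 482, 483 or 476, *Micu3* without any mouse but 480 and *Mcub* without any but 480 and 477, at edgeR adjusted p of up to 0.0684, 0.0759, 0.0706 and 0.0794.

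Among calcium sensors and effectors, 3 of 19 genes were lower, 1 was higher and the median was −0.28. *Tnnc2*, the calcium-binding troponin of fast fibres, was at 6537, 10958, 10673 and 12489 CPM after DMSO and at 3319, 3198 and 3221 CPM after ABT-263. The treated mice lay within a narrow range far below the controls, and *Tnnc2* fell by 1.65 (edgeR adjusted p = 0.0104). *Ppp3ca*, the catalytic subunit of calcineurin, fell by 0.90 (edgeR adjusted p = 0.0132) and *S100a1*, a calcium sensor that binds the release channel, by 0.75 (edgeR adjusted p = 0.0158, and 0.0506 without mouse 482). *Calm3*, a calmodulin gene, rose by 0.54 (edgeR adjusted p = 0.0312) and passed in only 1 of the 7 fits with a mouse left out, that without mouse 477, the others giving edgeR adjusted p of 0.0533 to 0.0964.

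Membrane excitation had the lowest median of the 5 lists, −0.82, with 5 of 14 genes lower and 1 higher. *Rapsn*, which clusters acetylcholine receptors at the endplate, fell by 0.87 (edgeR adjusted p = 0.0105), and *Chrne*, the adult epsilon subunit of the receptor, by 1.20 (edgeR adjusted p = 0.0141, and 0.0520 without mouse 478). *Chrng* encodes the gamma subunit, which the epsilon subunit replaces after birth and which returns in denervated fibres. *Chrng* was at 28.2, 62.1, 2.10 and 6.04 CPM after DMSO and at 0.322, 0.428 and 0.408 CPM after ABT-263, and its log2 difference was −5.97 (edgeR adjusted p = 0.0197). Most of the *Chrng* signal came from controls 480 and 481. Without both, the log2 fold change was −3.38 (edgeR adjusted p = 0.0272), without 481 alone it was −4.95, and the call was lost without any one treated mouse (edgeR adjusted p 0.0650 to 0.122). *Chrnb1*, the beta subunit, fell by 0.79 (edgeR adjusted p = 0.0347). The potassium channel gene *Kcna7* rose by 2.38 (edgeR adjusted p = 0.0383), and by 1.53 without mouse 478 (edgeR adjusted p = 0.132). With a mouse left out, *Chrnb1* kept its call only without mouse 480 or 476 and *Kcna7* only without 480 or 477, the other fits giving edgeR adjusted p of up to 0.106 and 0.132.

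**Figure D5:**
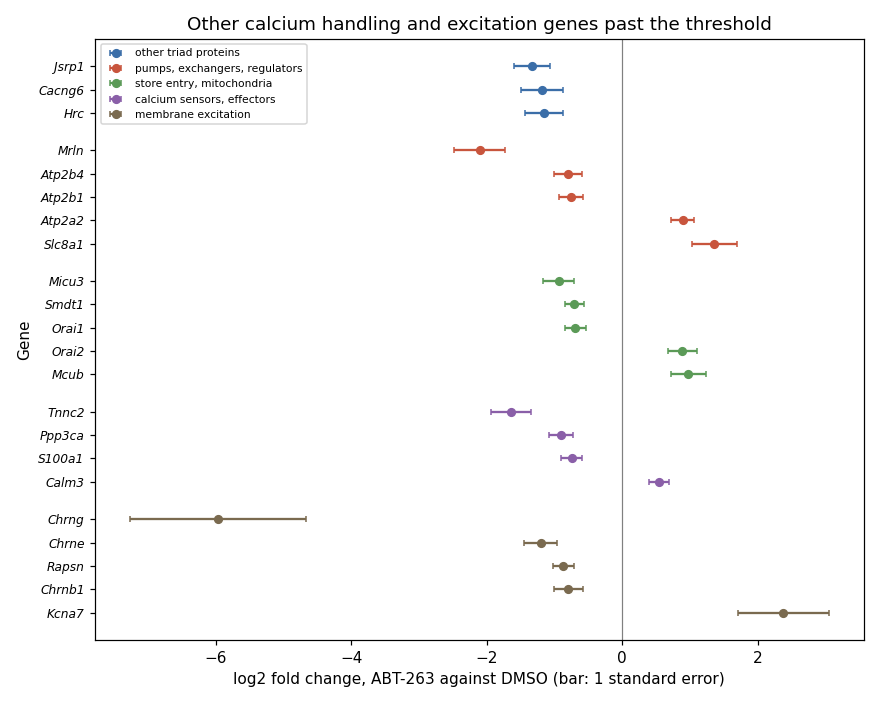
Log2 fold change, ABT-263 against DMSO, with 1 SE to each side, of 22 other calcium handling and excitation genes with an adjusted p under 0.05 in edgeR's test, coloured by list. The values run from −5.97 for *Chrng* to 2.38 for *Kcna7*, with 16 genes below 0 and 6 above.

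Genes with the profile most like that of *Pvalb* over the 7 mice were *Gm15903* (root mean square difference 0.556), *Gdf5* (0.648), *Retnla* (0.650), *5330431K02Rik* (0.658) and *Mrln* (0.692), among 15580 genes with a mean of at least 1 CPM. In treated mice *Gm15903* was at 0.179 to 0.322 CPM, *Gdf5* at 0.250 to 0.479 CPM and *5330431K02Rik* at 0.150 to 0.322 CPM. Their match to *Pvalb* thus rests on very low counts in those mice. The gene nearest to the mean of the other 9 was *Jph2* (0.0856), followed by *Trim54* (0.0873), *Tbx15* (0.0922), *Sox6* (0.0953) and *Fitm1* (0.0975). The differences from *Pvalb* are from 1 gene and the others from a mean of 9, so the 2 sets of values are not comparable. None of 5 muscle reference genes (*Acta1*, *Ckm*, *Myh1*, *Myh2* and *Myh4*) passed the threshold: *Acta1* stood at a log2 fold change of −0.43 (edgeR adjusted p = 0.348), *Ckm* at −1.03 (edgeR adjusted p = 0.0576), and the fast myosin genes *Myh1*, *Myh2* and *Myh4* at −0.04, −0.76 and −0.46 (edgeR adjusted p = 0.932, 0.0887 and 0.798). In the DESeq2 Wald test *Ckm* and *Myh2* did pass as lower (DESeq2 Wald adjusted p = 0.00727 and 0.0380). These 5 are part of the 14 fast muscle genes. Of that list *Tnnt3* (−1.16, edgeR adjusted p = 0.0319), *Tnni2* (−1.28, edgeR adjusted p = 0.0233) and *Pgam2* (−1.32, edgeR adjusted p = 0.0199) passed as lower.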

How the data were processed

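RNA of whole dorsal skin was sequenced in 7 mice, of which 4 received DMSO and 3 ABT-263. The authors aligned reads to mm10 with STAR 2.7.9a and counted uniquely aligned proper pairs on the same strand per Ensembl gene with featureCounts of Subread 1.6.2, leaving out mitochondrial genes, and the submitters' processing notes also name FastQC 0.11.7 and DESeq2 1.23.10. The deposited counts are raw. The other deposited table, made by the authors through variance stabilization, is on a log2-like scale and served as an alternative only.

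Symbols, positions and exon lengths were taken from GENCODE M21 (GRCm38), where 55190 of 55450 identifiers were found, and promoter sequences from RefSeq (GRCm38.p6). The exons of the 10 genes share 0 bases with another gene on the same strand. Counts were tested with the quasi-likelihood test of edgeR 4.0.16 in R 4.3.3 with TMM, filterByExpr and robust estimation. The test was two-sided, p was adjusted by Benjamini-Hochberg across the 17959 genes kept, and the threshold was 0.05. Log2 CPM per mouse used a prior count of 2. The test was tried on simulated data with known fold changes. The smallest p that 4 against 3 mice allow in an exact permutation test is 0.0286. The labels name no batch.

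The 10 genes and all lists were chosen with earlier results of these data known. Named genes were the 10, up to 6 genes per list with an adjusted p under 0.05, close relatives, 5 muscle reference genes and the 5 nearest profiles to *Pvalb* and to the mean of the other 9. Other genes named were chosen after their values were seen, and 1 membrane excitation gene that passed is counted but not reported here. Alternatives were the DESeq2 1.42.0 Wald test, its size factors, library size alone, every gene with a count, at least 10 counts in every library, protein-coding genes only, no robust estimation, the variance-stabilized values and leaving out each mouse. Added after seeing the data were counts thinned to the smallest library, leaving out mice 480 and 481 together, and subtraction of trends along transcript length and GC fitted with mgcv 1.9.3.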

Additional observations from a re-analysis of the deposited data

How the results depend on the processing

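The median log2 fold change of the 10 genes (−0.75) lay between −0.94 without mouse 480 and −0.58 without mouse 477, and was −1.02 without mice 480 and 481, an alternative chosen after seeing the data. The difference of *Pvalb* from the median of the other 9 (−2.65) lay between −3.01 without mouse 482 and −2.42 without mouse 481, and was −2.07 without mice 480 and 481. The number of genes passing over the whole table (4342) lay between 1735 and 4169 with single mice left out and was 1800 without mice 480 and 481, where fewer samples entered the fit. Of the 71 other calcium and excitation genes, 23 passed, and between 11 and 30 with single mice left out. Without mouse 480, 25 of these were lower and 5 higher. Of the 10 genes, 3 passed as lower with edgeR on all mice, 4 with the Wald test, 7 without mouse 480 and 5 without mice 480 and 481. Over all genes, in either direction, these fits called 4342 of 17959, 5661 of 21822, 4169 of 17738 and 1800 of 18220. Mouse 480 was the lowest control for 9 of the 10 genes, and nothing is read from these counts. Scaling by library size alone moved the median of all genes to 0.09 on the log2 scale. The fold change of *Ryr1* became 0.16 once trends on transcript length and GC content were removed, and that of *Srl* became −0.04. The cause was not tested for any of these shifts. No paired analysis was possible because the DMSO- and ABT-263-treated mice share no numbers. Each of the 10 genes had at least 390 counts in every library, and with counts thinned to the smallest library their median was −0.78.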

Other observations

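Parvalbumin is known from the fastest fibres, which express *Myh4*. Among the controls, mouse 481 alone broke the shared order of the pair. The remaining controls ranked alike for both genes, and so did the treated mice among themselves. Control 481 had the highest *Pvalb* (2506 CPM) and the lowest *Myh4* of the controls (187 CPM), while control 483 had 2122 CPM of *Pvalb* and 6463 CPM of *Myh4*. Treated mouse 478 had 213 CPM of *Pvalb* at 2793 CPM of *Myh4*, more *Myh4* than in 3 of the 4 controls. *Actn3*, also a gene of fast fibres, was lowest among the controls in mouse 482 (314 CPM), the mouse in which *Pvalb* and *Mrln* were lowest as well. Unlike that pair, *Actn3* overlapped between the groups, with 658 and 617 CPM in treated mice 476 and 478.

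Controls 480 and 481, which held most of the *Chrng* signal, were also the highest in *Chrnd*, *Chrna1* and *Tnnt2*. *Chrnd*, the delta subunit of the acetylcholine receptor, was at 17.4 and 29.1 CPM in them and at 1.232 and 2.67 CPM in mice 482 and 483. *Chrna1*, the alpha subunit, was at 45.6 and 76.7 CPM against 11.8 and 21.7 CPM, and *Tnnt2*, the troponin T of heart and embryonic muscle, at 89.1 and 160.0 CPM against 14.3 and 18.5 CPM. The treated mice had between 6.83 and 13.1 CPM of *Tnnt2*. Their *Chrna1* (12.6 to 22.1 CPM) and *Chrnd* (1.64 to 2.08 CPM) overlapped the range of controls 482 and 483. The other endplate genes listed did not follow this grouping. *Chrne* (3.64 CPM), *Rapsn* (23.2 CPM) and *Colq* (1.88 CPM) were lowest among the controls in mouse 480. *Ache* was lower in mice 480 and 481 (8.96 and 13.4 CPM) than in mice 482 and 483 (25.6 and 22.9 CPM). *Chrnb1* was also lowest among the controls in mouse 480 (26.8 CPM), and *Musk* was lower in mouse 480 (2.99 CPM) than in mouse 482 (3.39 CPM). *Gdf5*, a BMP-family ligand among the genes nearest to *Pvalb*, was at 6.47 and 12.4 CPM in mice 480 and 481, at 1.03 and 2.83 CPM in mice 482 and 483, and at most at 0.479 CPM after ABT-263. The genes of this paragraph and *Actn3* were picked after their values were seen, and the grouping of the controls was not tested. Over 49 measures examined in the 4 controls, 0 had a single mouse far enough from the others to pass Dixon's criterion, where chance would give 2.45. The criterion looks for a single outlying mouse, so it cannot show a pair of controls apart from the rest. *Chrnd*, *Chrna1*, *Tnnt2* and *Gdf5* were not among the measures, and nothing is read from it about the grouping.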
